A study of Oryza sativa Japonica Group with 36 samples.

Results

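The second leaf (SL), the leaf directly below the flag leaf (FL), was compared between 28 and 20 days after heading (DAH) in field-grown rice of the japonica cultivar Dongjin, while the grains were filling. The comparison used all libraries of SL at these time points, 3 at 28 DAH and 3 at 20 DAH, 6 of 36 in the series, and every gene measured. In the series, FL and SL were each sampled at 6 time points with 3 replicates by mRNA-sequencing. Each replicate pooled the middle parts of 9 leaf blades cut early in the morning, the plants carried no transgene or treatment, and all replicates of a time point were cut on the same occasion. The age of the leaf and the conditions of its sampling day therefore cannot be told apart, and p-values measure the spread between pools of the same field and day.

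A rice leaf below the panicle fills the grain first with sugar from photosynthesis and later with nitrogen released from its own chloroplast proteins. Most of the chlorophyll sits in antenna proteins, which gather light for photosystem I (PS I) and photosystem II (PS II), and leaf senescence dismantles these complexes through a dedicated chlorophyll breakdown pathway. NAC transcription factors act upstream of this program in cereals. The circadian clock, a loop of morning genes such as LHY and evening genes such as GIGANTEA, sets the daily phase of many leaf transcripts, antenna genes among them.

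The values are CPM, reads on a gene set against the total reads of its library on a common scale, after correction for library composition. Changes are given as log2 differences of CPM + 1, SL at 28 DAH minus SL at 20 DAH, with the standard error (SE), and a gene was called changed at an adjusted p below 0.05 in limma. Because 1 was added before the logarithm, the change of genes with low values is understated. Reads on genes numbered 13882487 to 26082278 per library at 28 DAH, and 10967482 to 14361800 at 20 DAH, so that 1 read was worth 0.0382 to 0.0749 CPM at 28 DAH, against 0.0690 to 0.0939 CPM at 20 DAH. Of the leaf markers, RBCS, a gene for the small subunit of Rubisco, was at 866 to 1153 CPM at 28 DAH and at 992 to 1238 CPM at 20 DAH, and PSAD, a subunit of PS I, was at 189 to 245 CPM at 28 DAH and at 260.1 to 330 CPM at 20 DAH. The other leaf markers, given below, were not all steady. The antenna genes CAB1R and CAB2R and the Rubisco activase gene rca were lower in every library of 28 DAH, while the Rubisco gene RBCS1 overlapped.

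Some libraries stood apart. At 28 DAH, replicate 3 correlated with its group mates at r = 0.989 and 0.990 over all genes, while replicates 1 and 2 correlated at 0.996. All pairs at 20 DAH correlated at 0.995 to 0.996, and pairs across the time points at 0.984 to 0.993. At 20 DAH, replicate 2 held transcripts of grain storage proteins. Without GLUA2, the 6 other glutelin and prolamin genes summed to 0.0749 to 0.115 CPM in the libraries of 28 DAH, against 60.9 CPM in replicate 2 and 0.660 and 0.690 CPM in the other replicates of 20 DAH. GLUA1 (22.3 CPM) and PROLM25 (16.3 CPM) were the main ones in replicate 2, and none of the 6 genes was above 0.345 CPM in the other 5 libraries. Of the other 35 libraries of the whole series, 1 also had a sum of these 6 genes above 10 CPM. GLUA2 itself was found in every library, at 17.7, 20.1, and 20.2 CPM at 28 DAH, against 13.6, 29.2, and 14.8 CPM at 20 DAH. The part of grain transcripts in the results was not tested, but counts of called genes and many single genes are also given below without replicate 2 of 20 DAH or without replicate 3 of 28 DAH.

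Of 22140 genes tested, 3333 (15.1%) were called changed, and 6011 (27.1%) had an unadjusted p below 0.05. The called genes comprised 2267 (10.2%) that were higher and 1066 (4.81%) that were lower at 28 DAH, so that 68.0% of them were higher. That share depended on the processing, with 59.1% under quantile normalization, 61.2% with edgeR, and 59.0% with DESeq2. The changes were mostly small. The median change was 0.62 among the genes called higher and -0.60 among those called lower, against 0.01 over all genes tested, and only 383 called genes changed by 2-fold or more, 263 (1.19%) upwards and 120 (0.542%) downwards. Of the changes of 4-fold or more, 2 were upwards and 11 downwards. In 2200 of the genes called higher, all 3 libraries of 28 DAH lay above all 3 of 20 DAH, and in 1033 of those called lower, all lay below. Among all genes tested, 20.9% were separated upwards and 15.5% downwards. The background for all counts of list members below is 15.1% of genes called, 10.2% higher and 4.81% lower. In pooled leaf tissue, fewer cells of a type and less RNA per cell cannot be told apart.

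**Figure D1:**
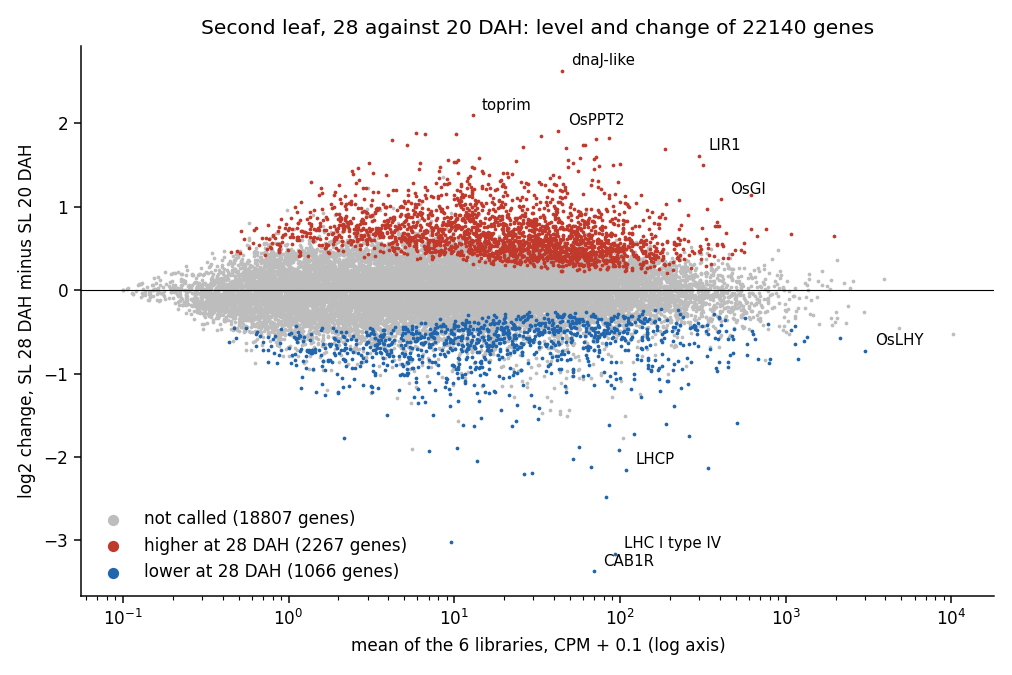
Mean CPM over the 6 libraries of SL (x axis, log scale, 0.1 added) against the log2 change of SL at 28 DAH minus SL at 20 DAH (y axis), 1 point per gene; red points are the 2267 genes called higher and blue points the 1066 called lower. The most strongly reduced labelled genes are antenna genes such as CAB1R at -3.37, and the highest point is a dnaJ-like chaperone gene at 2.63.

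The counts depended on single libraries. Without replicate 2 of 20 DAH, 1480 genes were called higher and 658 lower, and 1450 and 625 of these were among the genes called with all libraries. Without replicate 3 of 28 DAH, 1636 were called higher and 812 lower, of which 1541 and 706 were shared. In that fit, 2262 of the 2267 genes called higher with all libraries and all 1066 called lower kept their sign. Libraries of the time points did not overlap in 2200 of those called higher and 1033 of those called lower. In such genes, leaving out a library cannot change the sign, so the kept signs do not test the calls.

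Among called genes with a symbol or description, and without overlap of libraries, the largest decreases were in the light-harvesting antenna. Genes outside the antenna list also fell strongly, such as the unnamed OS03G0834050 at -2.05. Among all genes tested, OS09G0537700, also outside the list, had the next largest decrease after those of CAB1R and OS08G0435900, given below. Of 8 antenna genes in the list used, 7 fell and none rose, where 4.81% of all genes tested were called lower. The median change was -1.64, against 0.01 over all genes tested. CAB1R (OS09G0346500), a chlorophyll a/b-binding protein gene, was at 7.22, 10.1, and 16.6 CPM at 28 DAH, against 74.1, 132, and 177 CPM at 20 DAH. Its libraries did not overlap, and its change of -3.37 (SE 0.49, adjusted p = 1.8e-05) was the largest decrease of all genes tested. OS08G0435900, described as a type IV antenna protein of PS I, had 11.3, 17.7, and 26.3 CPM at 28 DAH, against 125, 183, and 195 CPM at 20 DAH, a change of -3.17 (SE 0.25, adjusted p = 2.5e-09). In both genes, replicate 3 was the highest of the libraries of 28 DAH and still far below every library of 20 DAH.

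LHCP (OS03G0592500) was at 30.7, 40.1, and 46.4 CPM at 28 DAH, against 133, 207, and 194 CPM at 20 DAH, and fell by 2.15 on the log2 scale (SE 0.30, adjusted p = 8.7e-06). CAB2R (OS01G0600900) was at 17.4, 19.7, and 21.9 CPM at 28 DAH, against 78.3, 111, and 65.7 CPM at 20 DAH, a change of -2.03 (SE 0.28, adjusted p = 7.9e-06). RCABP69 (OS07G0558400) changed by -1.26, the type III antenna gene of PS I OS02G0197600 by -0.88, and the type II antenna gene OS07G0577600 by -0.67. These 3 decreases were smaller than those of the other called members, and the type II gene passed only narrowly (adjusted p = 0.044). OS09G0296800, another gene of the chlorophyll-binding family, had 43.8, 44.1, and 57.4 CPM at 28 DAH, against 60.1, 60.6, and 69.2 CPM at 20 DAH, and was not called (adjusted p = 0.22). Without replicate 2 of 20 DAH, 5 of the 8 genes were called lower, and RCABP69 (adjusted p = 0.053) and the type II gene (adjusted p = 0.18) were not. Descriptions of genes selected for senescence on these same samples identified 4 of the 8 members, so the count is not independent evidence of the direction. Reads from near-identical antenna copies may have been divided or dropped in counting, and the levels of single copies are therefore uncertain.

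**Figure D2:**
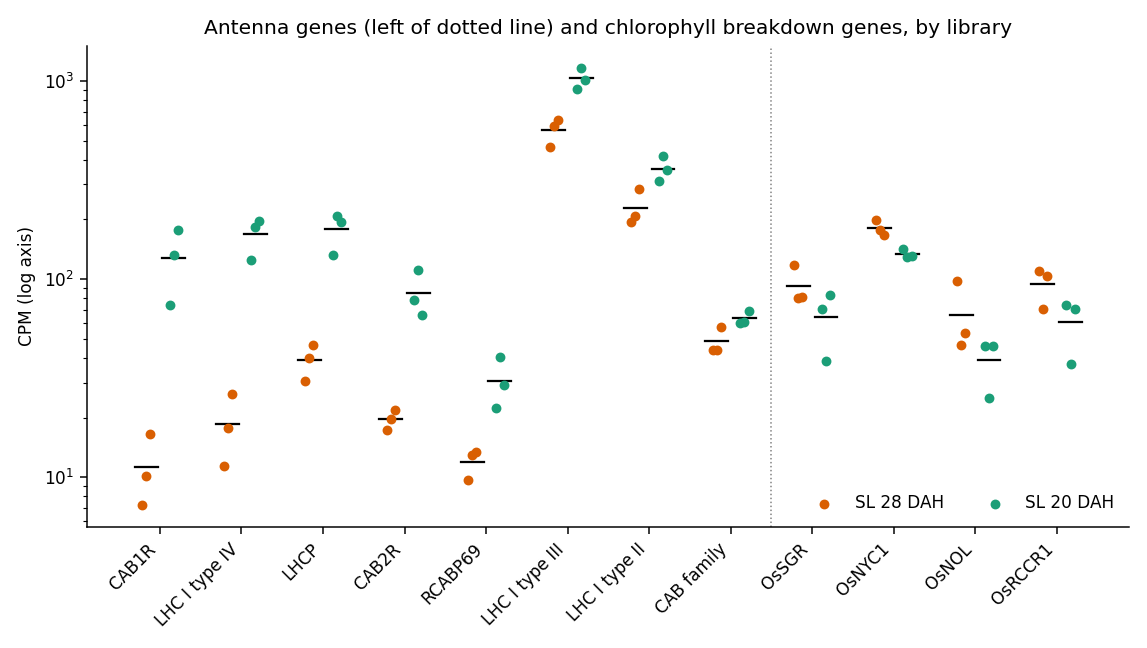
CPM (y axis, log scale) of the 8 antenna genes, left of the dotted line, and the 4 chlorophyll breakdown genes, right of it, in SL at 28 DAH (orange) and SL at 20 DAH (green); each point is 1 library and each bar a mean. The libraries of 28 DAH lie below those of 20 DAH for all antenna genes, and overlap with them for OsSGR and OsRCCR1.

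The remaining photosynthetic genes changed less. Of 13 subunits of PS I and PS II encoded in the nucleus, 2 fell, 1 rose, and 10 were not called, with a median change of -0.24. The PsaO domain gene OS04G0414700, for a small subunit of PS I, was at 125, 139.9, and 223 CPM at 28 DAH, against 257, 365, and 302 CPM at 20 DAH, a change of -0.95 (SE 0.25, adjusted p = 0.0079). The member that rose, the PsbQ-like gene OS02G0578400, was at 4.66, 4.64, and 5.31 CPM at 28 DAH, against 1.07, 0.939, and 1.10 CPM at 20 DAH (change 1.53, SE 0.23, adjusted p = 2.5e-05). Of these 13 members, 11 came from the same descriptions. No decrease was called without replicate 2 of 20 DAH, against 3 without replicate 3 of 28 DAH and 4 with quantile normalization. Rubisco genes showed no called change, and RBCS and RBCS1 differed by -0.11 and 0.05. The gene for Rubisco activase, rca (OS11G0707000), was at 7084, 10219, and 7955 CPM at 28 DAH, against 11926, 13077, and 10951 CPM at 20 DAH, without overlap, but did not pass (change -0.52, adjusted p = 0.15). GDCSH, the H subunit of glycine decarboxylase in photorespiration, rose by 0.74 (SE 0.17, adjusted p = 0.0034), and the other 7 genes of carbon fixation and photorespiration were not called.

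Of 76 chloroplast-encoded genes tested, rpl33 alone was called, higher by 0.63 (adjusted p = 0.029). Its call was lost without replicate 3 of 28 DAH (adjusted p = 0.098) and without replicate 2 of 20 DAH (adjusted p = 0.057). In the latter fit, 1 other chloroplast-encoded gene was called higher. None of 32 mitochondrion-encoded genes was called. Selection of polyadenylated RNA leaves few organelle transcripts. Chloroplast genes held 0.148 to 0.317% of reads at 28 DAH, against 0.141 to 0.296% at 20 DAH.

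Of 4 chlorophyll breakdown genes in the list used, 3 rose and 1 was not called, with a median change of 0.62, where 10.2% of all genes tested were called higher. Without replicate 2 of 20 DAH, 1 of the 4 was called. OsNYC1 (OS01G0227100), a chlorophyll b reductase, was at 199, 177, and 168 CPM at 28 DAH, against 141, 129, and 131 CPM at 20 DAH, a change of 0.43 (SE 0.10, adjusted p = 0.0022). OsNOL (OS03G0654600), its partner reductase, was at 97.8, 46.5, and 53.1 CPM at 28 DAH, against 46.1, 25.2, and 46.0 CPM at 20 DAH (change 0.71, adjusted p = 0.027). OsRCCR1 (OS10G0389200), the red chlorophyll catabolite reductase, was at 109, 70.3, and 104 CPM at 28 DAH, against 73.9, 37.4, and 70.4 CPM at 20 DAH (change 0.67, adjusted p = 0.034). OsSGR (OS09G0532000), the Mg-dechelatase behind the stay-green trait, had 117, 79.9, and 81.0 CPM at 28 DAH, against 70.7, 38.8, and 83.5 CPM at 20 DAH, and its change of 0.57 was not called (adjusted p = 0.067). In OsNOL, OsRCCR1, and OsSGR, replicate 2 was the lowest library of 20 DAH. Without it, OsNOL (0.43, adjusted p = 0.26) and OsRCCR1 (0.36, adjusted p = 0.33) were no longer called, and OsNYC1 was (0.41, adjusted p = 0.015). OsRCCR1 was not called without replicate 3 of 28 DAH either (adjusted p = 0.13).

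Of 12 chlorophyll synthesis genes, 2 rose, 2 fell, and 8 were not called. OsGSA (OS08G0532200), which makes the precursor 5-aminolevulinic acid, was at 149, 158, and 143 CPM at 28 DAH, against 85.6, 70.2, and 67.0 CPM at 20 DAH, and rose by 1.01 (SE 0.15, adjusted p = 3.1e-05). OsPPOX, protoporphyrinogen oxidase, rose by 0.59 (adjusted p = 0.031). OsDVR, the divinyl reductase, fell by 0.56 (adjusted p = 0.019), and OsCAO1, which converts chlorophyll a to chlorophyll b, fell by 0.48 (adjusted p = 0.028). The last 3 calls did not hold without replicate 2 of 20 DAH, with adjusted p-values of 0.066, 0.055, and 0.083, whereas OsGSA was still called (adjusted p = 4.6e-04). Without replicate 3 of 28 DAH, OsPPOX (adjusted p = 0.067) and OsCAO1 (adjusted p = 0.10) were not called. Among 7 genes of carotenoid and tocopherol synthesis, 3 rose and none fell. OsZEP1 (OS04G0448900), zeaxanthin epoxidase, was at 84.5, 66.4, and 60.4 CPM at 28 DAH, against 37.8, 32.7, and 34.7 CPM at 20 DAH, a change of 0.97 (SE 0.15, adjusted p = 3.2e-05). The phytoene synthase genes PSY3 and PSY1, for the first step of carotenoid synthesis, rose by 0.62 and 0.39, the call of PSY1 being lost without replicate 2 of 20 DAH (adjusted p = 0.095), while PSY2 was at 0.04 (adjusted p = 0.88).

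Clock genes changed in opposite directions. Of 7 in the list used, 3 rose, 2 fell, and 2 were not called. OsGI (OS01G0182600), the rice GIGANTEA, was at 608, 597, and 454 CPM at 28 DAH, against 274, 262, and 237 CPM at 20 DAH, a change of 1.09 (SE 0.17, adjusted p = 3.1e-05). OsPRR1 (OS02G0618200), the rice counterpart of TOC1, was at 6.19, 6.67, and 6.54 CPM at 28 DAH, against 1.90, 3.01, and 3.45 CPM at 20 DAH (change 1.00, SE 0.23, adjusted p = 0.0027). Both were separated between all libraries of the time points. OsPRR37 rose by 0.79 (adjusted p = 0.039), and OsPRR73, at 74.3 to 89.0 CPM at 28 DAH and 41.3 to 43.2 CPM at 20 DAH, was not called (0.94, adjusted p = 0.063). OsLHY (OS08G0157600), the morning gene, was at 2232, 2718, and 1931 CPM at 28 DAH, against 3796, 3865, and 3639.6 CPM at 20 DAH, a change of -0.73 (SE 0.24, adjusted p = 0.035). OsPRR95 fell by 0.73 as well (SE 0.22, adjusted p = 0.02). The calls of OsLHY (adjusted p = 0.15) and OsPRR95 (adjusted p = 0.086) were lost without replicate 3 of 28 DAH, and those of OsLHY (adjusted p = 0.10) and OsPRR37 (adjusted p = 0.11) without replicate 2 of 20 DAH.

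Of 14 photoreceptor and photoperiod genes, LIR1 rose, PHOT2 fell, and 12 were not called, a share near the 15.1% called among all genes. LIR1 (OS01G0102900), a light-regulated protein that tethers ferredoxin-NADP reductase to the thylakoid membrane, was at 426, 486, and 435 CPM at 28 DAH, against 174, 164, and 109 CPM at 20 DAH, a change of 1.61 (SE 0.19, adjusted p = 8.3e-07). PHOT2, a blue light receptor for chloroplast movement, fell by 0.53 (adjusted p = 0.044), a call that was lost without replicate 3 of 28 DAH (adjusted p = 0.24) and without replicate 2 of 20 DAH (adjusted p = 0.14).

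The levels of these genes over the whole series did not run in one direction. In SL, the 6 time points from 4 to 44 DAH gave OsGI means of 13.5, 35.2, 258, 553, 16.1, and 439.8 CPM. LIR1 averaged 28.1, 37, 149, 449, 47.7, and 542 CPM in the same order, and OsSAPK9 averaged 6.33, 10.4, 34.9, 105, 4.8, and 111 CPM. These genes were thus high at 28 and 44 DAH and low at 36 DAH. The type IV antenna gene OS08G0435900 showed the opposite course, with averages of 1291, 345, 168, 18.5, 386, and 13 CPM. The intervals from 12 to 20 DAH and from 28 to 36 DAH share their libraries with the present comparison. In OsGI, they gave changes of 2.84 and -5.02.

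**Figure D3:**
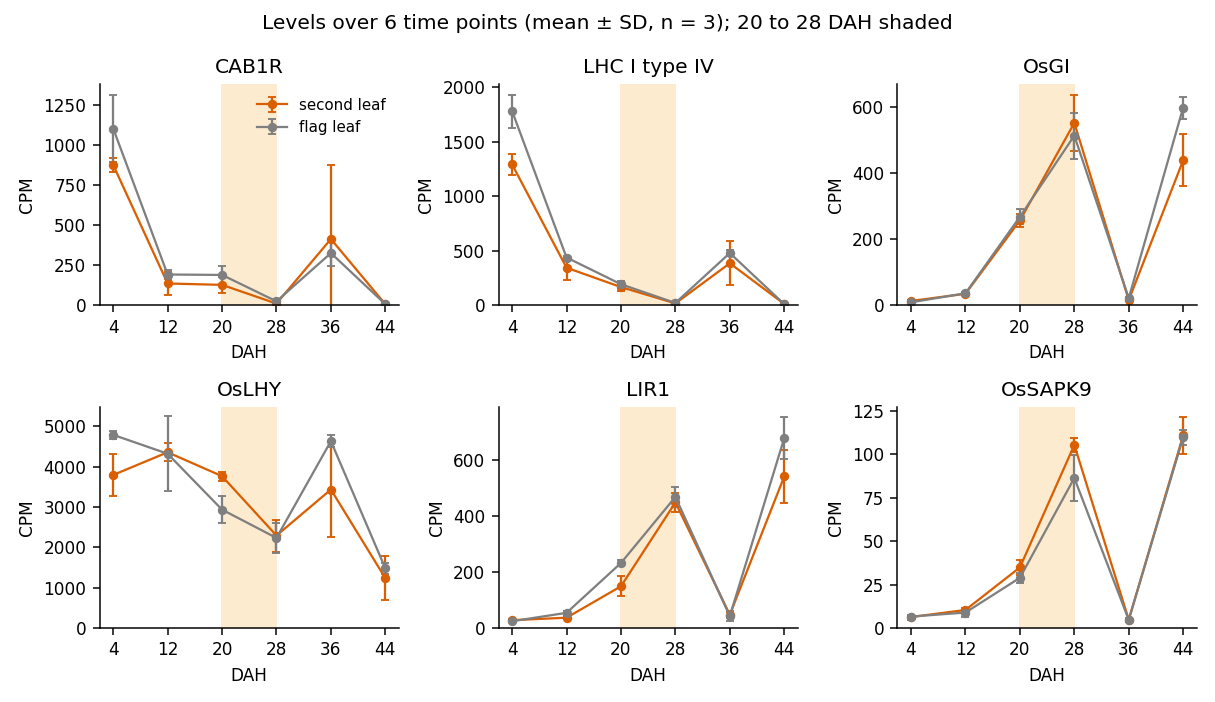
Mean CPM with SD (n = 3 libraries per point) at 6 time points in SL (orange) and FL (grey), with the interval from 20 to 28 DAH shaded. OsGI, LIR1, and OsSAPK9 are higher at 28 than at 20 DAH and low at 36 DAH, whereas CAB1R and the type IV antenna gene have low means at 28 DAH and higher ones at 36 DAH, for CAB1R in SL with an SD of 462 CPM at 36 DAH.

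Besides the antenna genes, the decreases picked by size included OS06G0728700, a homeodomain-like gene at 24.2, 23.5, and 24.7 CPM at 28 DAH, against 105, 103, and 118 CPM at 20 DAH, a change of -2.12 (SE 0.10, adjusted p = 2.7e-14). Its replicates differed little at either time point. OS10G0181600, a methyltransferase domain gene, changed by -1.61, the CCCH zinc finger gene OsC3H54 by -1.41, the rhomboid protease gene OS02G0326700 by -1.39, and the GDSL lipase gene OS01G0223200 by -1.33. The heat stress factor gene OS03G0161900 was at 14.3, 16.1, and 18.2 CPM at 28 DAH, against 45.6, 42.7, and 43.4 CPM at 20 DAH, a change of -1.39 (SE 0.12, adjusted p = 8.9e-09).

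The largest increase was that of OS04G0675400, described as a dnaJ-type chaperone, at 104, 71.6, and 57.6 CPM at 28 DAH, against 17.3, 9.20, and 9.04 CPM at 20 DAH (change 2.63, SE 0.33, adjusted p = 1.8e-06). OS06G0671700, with a toprim domain of the kind found in DNA topoisomerases and primases, was at 23.2, 21.5, and 19.8 CPM at 28 DAH, against 5.2, 2.91, and 4.97 CPM at 20 DAH (change 2.10, SE 0.18, adjusted p = 6.2e-09). OS06G0652000 resembles the single-subunit RNA polymerases of phage T3 and T7, a type that plants use to transcribe organelle genomes. It was at 59.9, 53.6, and 43.5 CPM at 28 DAH, against 14.3, 11.4, and 15.7 CPM at 20 DAH, and rose by 1.85 (SE 0.21, adjusted p = 6.0e-07). Further increases picked by size were OsPPT2 (1.91), the CCT motif gene OS06G0298200 (1.83), BBD1 (1.81), the nucleotide-binding plait domain gene OS07G0631900 (1.74), and the rhodanese-like gene OS09G0530000 (1.56). In all of these 20 genes picked by size, the 3 libraries of 28 DAH did not overlap with the 3 of 20 DAH, as the choice required. Those with a description and no symbol were eligible only because the study had selected them for senescence on these same samples.

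OsSAPK9 (OS12G0586100), a SnRK2 kinase of abscisic acid signalling, was at 107, 108, and 100.4 CPM at 28 DAH, against 35.7, 38.5, and 30.3 CPM at 20 DAH, a change of 1.57 (SE 0.16, adjusted p = 7.9e-08). Among 16 genes of abscisic acid turnover and SAPK kinases, 4 rose and none fell, with a median change of 0.32, where 10.2% of all genes tested were called higher. Besides OsSAPK9 and OsZEP1, these were OsSAPK3 and OsABA8ox3, an abscisic acid hydroxylase, both at 0.51 and both named after their values were seen. In the ethylene pathway, 1 of 9 genes rose and 1 fell. ACO1, which makes ethylene, was at 0.878, 0.824, and 0.900 CPM at 28 DAH, against 3.38, 3.38, and 2.76 CPM at 20 DAH (change -1.16, SE 0.21, adjusted p = 2.4e-04), and the receptor gene OsERS1 rose by 0.47 (adjusted p = 6.2e-04). Of 11 cytokinin response regulators, OsRR2 (OS02G0557800), induced by cytokinin, fell, with 54.5, 96.5, and 93.1 CPM at 28 DAH, against 130.0, 202, and 156 CPM at 20 DAH (change -1.01, SE 0.17, adjusted p = 1.4e-04). Without replicate 3 of 28 DAH, 3 of the 11 were called lower. None of 13 jasmonate synthesis genes or 14 JAZ and TIFY repressors was called. The closest were OsAOC, allene oxide cyclase, at -0.55 (adjusted p = 0.051), and OsJAZ11 at 0.60 (adjusted p = 0.092).

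Of 6 NAC factors linked to senescence by earlier profiling of rice flag leaves, 3 rose, with a median of 0.63. Without replicate 3 of 28 DAH 2 were called, and without replicate 2 of 20 DAH 1. Os03g0327100 was at 29.5, 25.6, and 21.1 CPM at 28 DAH, against 13.9, 11.6, and 14 CPM at 20 DAH (change 0.89, SE 0.20, adjusted p = 0.0020). Os07g0683200 rose by 0.84 (adjusted p = 0.016) and Os10g0571600 by 0.71 (adjusted p = 0.02), and both calls were lost without replicate 2 of 20 DAH (adjusted p = 0.11 and 0.14). That of Os07g0683200 was also lost without replicate 3 of 28 DAH (adjusted p = 0.094). OsNAP (OS03G0327800), which promotes nutrient remobilization in rice, was at 192, 185, and 197 CPM at 28 DAH, against 180.1, 167, and 209 CPM at 20 DAH, and was not called (0.05, adjusted p = 0.85). Among 8 further NAC genes, 3 rose and 1 fell. OsNAC2 was at 13.6, 8.17, and 9.81 CPM at 28 DAH, against 4.12, 4.41, and 4.14 CPM at 20 DAH (change 1.11, SE 0.23, adjusted p = 9.1e-04), OsNAC8 rose by 0.62, and the stress factor OsNAC5 fell by 0.52 (adjusted p = 0.022), without passing when replicate 3 of 28 DAH (adjusted p = 0.071) or replicate 2 of 20 DAH (adjusted p = 0.068) was left out. None of 6 WRKY factors and none of 8 autophagy genes was called. The changes ran from -0.54 to 0.50 in WRKY factors and from -0.30 to 0.36 in autophagy genes.

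None of 5 nitrogen assimilation genes was called in SL. OsGS1;1, the cytosolic glutamine synthetase, was at 593, 636, and 535 CPM at 28 DAH, against 633, 567, and 652 CPM at 20 DAH, and overlapped fully (-0.07, adjusted p = 0.87). The plastid enzymes OsGS2 and OsFd-GOGAT, which recover ammonia from photorespiration, differed by -0.31 (adjusted p = 0.12) and -0.55 (adjusted p = 0.18). Only 2 amino acid transporters were in the list used. BAT1 (OS01G0607200), an amino acid permease, rose by 0.58 (adjusted p = 0.0068), and the proline transporter PROT1 did not pass (0.10, adjusted p = 0.62). The sucrose transporters OsSUT1, OsSUT2, and OsSUT4 differed by -0.09 to 0.13, and none was called, nor was any of 10 SWEET sugar carriers. Of 22 sucrose and starch enzymes, 3 rose and 1 fell, a share near the 15.1% called among all genes. The sucrose synthases OsSUS2 and OsSUS4 rose by 0.63 (adjusted p = 0.0051) and 0.51 (adjusted p = 0.019), and OsPPDKB, pyruvate phosphate dikinase, fell by 0.43 (adjusted p = 0.036). None of these 3 calls held without replicate 2 of 20 DAH, where their adjusted p-values were 0.056, 0.086, and 0.13 and 1 gene of the list was called higher. OsPPDKB was not called without replicate 3 of 28 DAH either (adjusted p = 0.12).

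**Figure D4:**
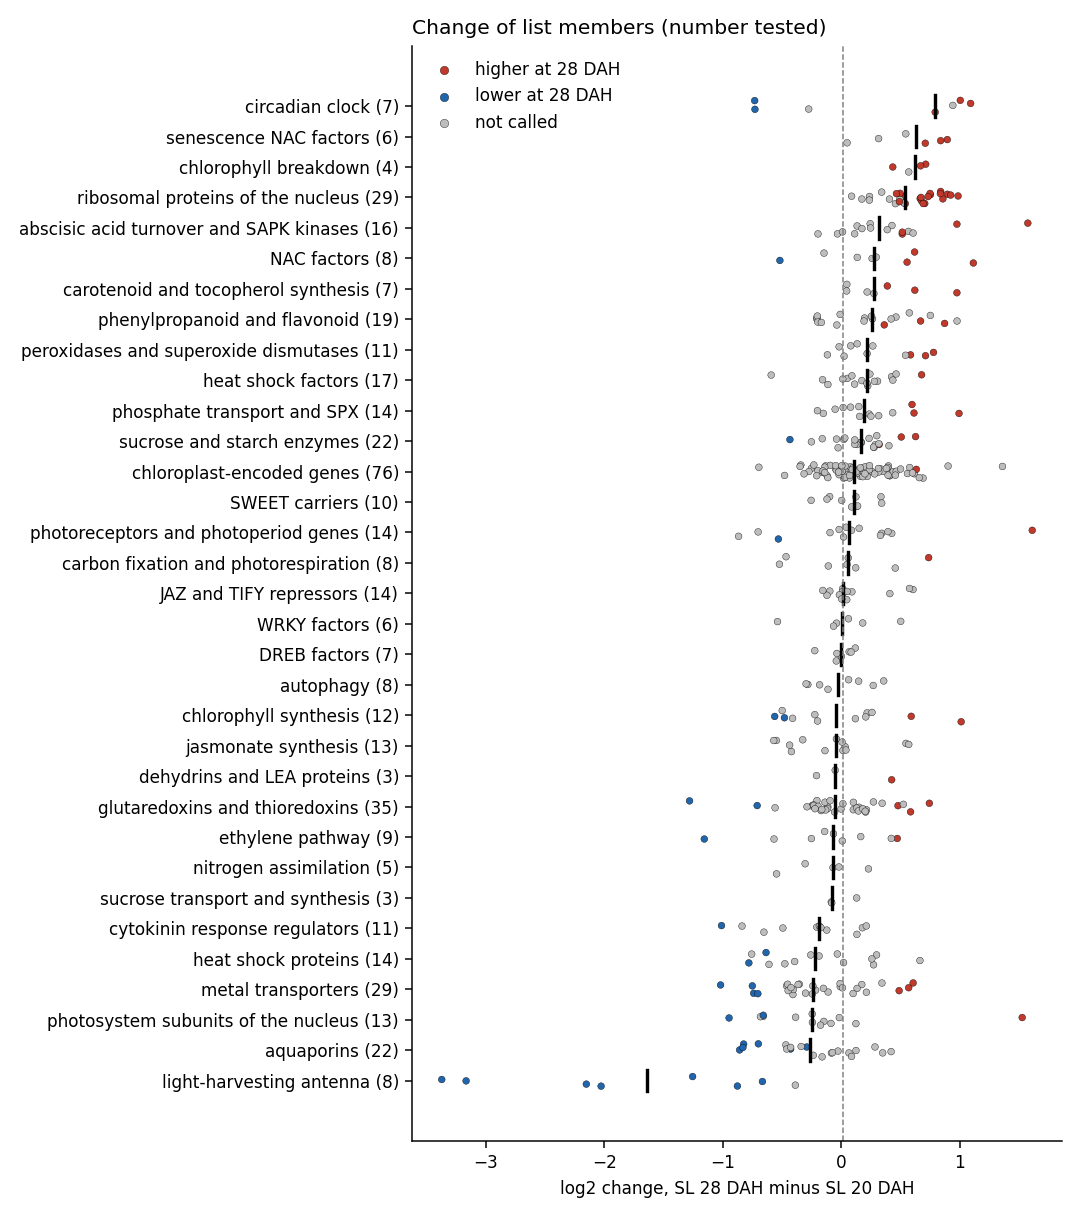
Log2 change of SL at 28 DAH minus SL at 20 DAH (x axis) for each tested member of the gene lists (rows, with the number tested), where red points were called higher, blue points lower, and grey points not called; black bars are medians and the dashed line is the median of all genes. The antenna row lies to the left with a median of -1.64, and all 29 ribosomal protein genes lie to the right of 0.

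Of 29 ribosomal protein genes of the nucleus, 19 rose, 10 were not called, and none fell. All 29 had a positive change, with a median of 0.54, against 0.01 over all genes and a background of 10.2% called higher. RPS27AB (OS05G0160200) was at 99.9, 93.7, and 97.0 CPM at 28 DAH, against 56.8, 54.3, and 60.8 CPM at 20 DAH, a change of 0.75 (SE 0.11, adjusted p = 1.2e-05). RPS3A (OS03G0200500) was at 136, 127, and 136 CPM at 28 DAH, against 81.8, 60.4, and 82.0 CPM at 20 DAH, a change of 0.84 (SE 0.14, adjusted p = 7.5e-05). Without replicate 3 of 28 DAH, 13 were called higher, and without replicate 2 of 20 DAH, 14.

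Of 22 aquaporins, 6 fell and none rose, with a median of -0.27, where 4.81% of all genes tested were called lower. OsPIP1;1 (OS02G0666200), a plasma membrane water channel, was at 471, 517, and 477 CPM at 28 DAH, against 819, 885, and 893 CPM at 20 DAH, a change of -0.82 (SE 0.14, adjusted p = 1.6e-04). The vacuolar channel OsTIP1;1 fell by 0.83 (adjusted p = 0.0094). Without replicate 2 of 20 DAH, 2 aquaporins were called lower, and without replicate 3 of 28 DAH, 4. Of 29 metal transporters, 3 rose and 4 fell, but without replicate 3 of 28 DAH 1 was called lower, and without replicate 2 of 20 DAH 2 were. The calls included NRAMP6 at 0.61 and NRAMP4 at -1.02. NRAMP4 was not called without replicate 3 of 28 DAH (adjusted p = 0.058) or without replicate 2 of 20 DAH (adjusted p = 0.074). Of 14 genes of phosphate transport and SPX proteins, 3 rose, against 1 without replicate 2 of 20 DAH. OsPHR3, a phosphate starvation regulator, was at 85.3, 59.6, and 55.5 CPM at 28 DAH, against 38.1, 28.8, and 31.2 CPM at 20 DAH (change 0.99, SE 0.18, adjusted p = 1.9e-04).

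Of 14 heat shock proteins, OsHsp17.9A (-0.78, adjusted p = 0.0028) and HSP82 (-0.64, adjusted p = 0.0049) fell and none rose, while 1 of 17 heat shock factors, HSFA4D, rose (0.68, adjusted p = 0.0037). The list held genes with an HSF symbol, so it did not include OS03G0161900, the heat stress factor gene described above, which fell by 1.39. None of 7 DREB factors was called, and of 3 dehydrin and LEA genes, OsDhn1 rose by 0.42 (adjusted p = 0.021), without passing when replicate 2 of 20 DAH was left out (adjusted p = 0.056). Of 35 glutaredoxins and thioredoxins, 3 rose and 2 fell, a share near the 15.1% called among all genes. The called changes ran from GRXC1 at -1.28 to GRXC4 at 0.74, and GRXC1 did not pass without replicate 2 of 20 DAH (adjusted p = 0.17). Of 11 ascorbate peroxidases and superoxide dismutases, 3 rose, against 1 without replicate 3 of 28 DAH. OsAPx7 was at 44.2, 54.6, and 90.9 CPM at 28 DAH, against 36.5, 42.2, and 27.3 CPM at 20 DAH (0.78, adjusted p = 0.007). Its highest library was replicate 3 of 28 DAH, and it did not pass without it (adjusted p = 0.10). Of 19 phenylpropanoid and flavonoid genes, 3 rose, where 10.2% of all genes tested were called higher. They included OsCAD2 at 0.87 (adjusted p = 0.01) and Os4CL3 at 0.67 (adjusted p = 0.042), whose libraries overlapped between the time points. No gene of this list was called without replicate 3 of 28 DAH or without replicate 2 of 20 DAH.

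The same 8 days were followed in FL with libraries of its own, cut on the same days. In FL, 5055 genes (22.8%) were called, of which 2448 (11.1%) were higher and 2607 (11.8%) were lower at 28 DAH. Of the genes called higher in SL, 1508 were also called higher in FL, 66.5% of the SL list and 61.6% of the FL list. Of those called lower in SL, 812 were also lower in FL, 76.2% of the SL list and 31.1% of the FL list. Only 2 genes were called in opposite directions. Across all genes, the changes in SL and FL correlated at r = 0.73, where the points share sampling days and genes are not independent replicates. The antenna genes CAB1R and OS08G0435900 changed by -3.37 and -3.17 in SL, against -2.85 and -3.07 in FL, and OsGI by 1.09 in SL, against 0.93 in FL. Ribosomal protein genes had a median of 0.54 in SL, against 0.66 in FL, where 21 of 29 rose.

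The difference between the leaves was tested by an interaction term. It was called for 2 of 22140 genes (0.00903%) with limma, and 1491 (6.73%) had an unadjusted p below 0.05. With edgeR on recovered reads, 0 genes were called and 1602 had an unadjusted p below 0.05, and with DESeq2 the called genes numbered 53. Thus a gene such as OsNYC1, called in SL (0.43) and not in FL (0.18, adjusted p = 0.19), was not shown to differ between the leaves (adjusted p of the difference 0.80).

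**Figure D5:**
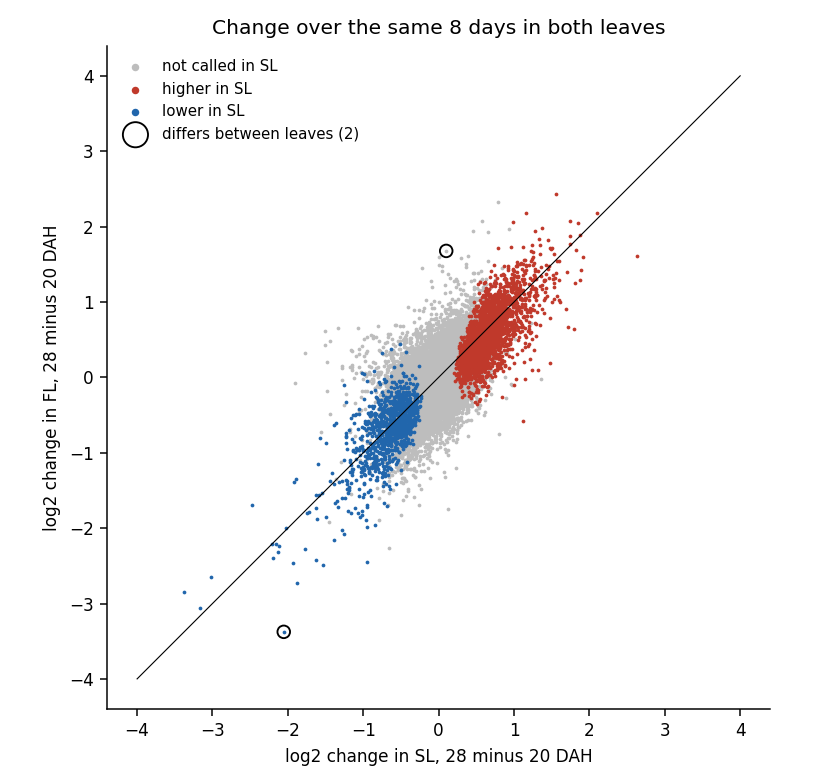
Log2 change from 20 to 28 DAH in SL (x axis) and in FL (y axis), 1 point per gene; red and blue points were called higher and lower in SL, the line marks equal change, and the open circles are the 2 genes for which the leaves differed. Most genes called in SL lie on the same side of 0 in FL.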

How the data were processed

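Per the labels, SL and FL libraries were made from polyadenylated RNA with a stranded kit and grouped by leaf and time point. The authors trimmed reads with cutadapt 1.2.1, aligned them to the rice genome (build IRGSP-1.0) with TopHat2 2.0.10, counted reads on genes with HTSeq 0.6.1, and scaled the counts with edgeR. The deposited signal values are CPM on scaled library sizes by the trimmed mean of M-values, before the quantile step the authors then applied. Whether counting used the strand is not given in the sources used here, so reads from a gene and its antisense partner cannot be told apart. All values were whole multiples of 1 read within 0.1 reads. Even so, 1 FL library of 28 DAH was left out of the count tests, because its step could not be set apart reliably.

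Here, limma 3.58.1 (trend = TRUE, R 4.3.3) was fitted to log2(CPM + 1) of all 36 libraries in 12 groups for 22140 of 38026 genes, those with at least 1 in 3 or more libraries. Benjamini-Hochberg adjustment ran over every gene tested. edgeR 4.0.16 and DESeq2 1.42.0 were run on reads recovered from 35 libraries. The test was checked on simulated data. The floor of a library was set at 3 reads and covers counting error only.

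Names of genes were taken from the study's text, the deposited table, and reference entries for 23729 matched identifiers of another assembly, from which no coordinates were taken. Of these, 2752 had a named synonym. Descriptions of 1640 genes came from the study's genes selected for senescence on these same samples. Identifiers that no source names (13) were left out. Members and lists were chosen with earlier results of these data known. Named genes were the 10 largest changes in each direction among called genes with a symbol or description, at least 5 CPM in the higher group, and no overlap of libraries, and up to 4 members per list (all members of lists of 8 or fewer). Alternatives were quantile normalization, another pseudocount, other filters, fewer libraries, count tests, a replicate block, and leaving out each library. Promoter motifs were not analysed here.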

Additional observations from a re-analysis of the deposited data

Results flagged for a closer look

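Genes whose change from 20 to 28 DAH differed between SL and FL by the interaction test numbered 2, and neither has a name in the sources used. OS03G0834050 was at 4.16, 4.57, and 5.21 CPM in SL at 28 DAH, against 25.8, 18.6, and 23.4 CPM in SL at 20 DAH, a change of -2.05, while it changed by -3.38 in FL, a difference of 1.32 (SE 0.23, adjusted p = 0.048). OS08G0331800 was at 0.115, 0.375, and 0.521 CPM in SL at 28 DAH, against 0.247, 0.188, and 0.276 CPM in SL at 20 DAH, values near the floor of 3 reads, and rose by 1.68 in FL, a difference of -1.58 (SE 0.23, adjusted p = 0.0034).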

How the results depend on the processing

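With all libraries, 2267 genes were higher and 1066 lower in SL at 28 DAH. Quantile normalization, another pseudocount, other filters on low values, the 6 libraries of the comparison alone, and edgeR gave 1986 to 2254 genes higher and 931 to 1379 lower. DESeq2 called 2397 genes higher and 1663 lower, and the 18 SL libraries alone called 690 lower and 1588 higher. Leaving out each library in turn gave 1480 to 1919 genes higher and 658 to 840 lower, both lowest without replicate 2 of 20 DAH, the library with grain storage transcripts. The causes of these differences were not tested. Deviations of SL libraries with the same replicate number correlated at 0.05 to 0.28 across genes, not above 0.1 in every pair, so the numbers were not taken to pair the samples, and a replicate block gave 2086 genes higher, 980 lower, and 1 differing between the leaves. The number of genes that differed between SL and FL was 2, against 1 with quantile normalization, 0 with a pseudocount of 0.1 (1423 at an unadjusted p below 0.05), 8 with no filter, 0 with the stricter filter (1344 unadjusted), 0 with edgeR (1602 unadjusted), 53 with DESeq2, and 1 to 4 when each SL library was left out. Of 133 named genes, 79 were called. Of these, 47 kept the call under every alternative that tested them, and 32 lost it under at least 1. No gene called with all libraries or under the alternative changed direction. Directions of uncalled genes could change, such as OsNAP at 0.05 with all libraries and -0.02 without replicate 2 of 20 DAH.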
